A study of Mus musculus with 6 samples.

Results

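The YAP/TEAD factors and CCN matricellular genes are 10 mouse genes taken by their symbols from the deposited count table: the coactivators Yap1 and Wwtr1 with the DNA-binding factor Tead1, the secreted CCN proteins Cyr61, Ctgf, Nov, Wisp1 and Wisp2, and the target genes Ankrd1 and Amotl2. They are 10 of the 43760 rows of the table, and all 10 had enough counts to be among the 12354 genes tested. Their RNA was measured by total RNA sequencing in 3T3-L1, a mouse fibroblast line that can be turned into fat-storing adipocytes and is widely used as a preadipocyte. The groups were day 7, 3 libraries of cells differentiated with IBMX, insulin, dexamethasone and rosiglitazone, and day 0, 3 libraries of the same cells harvested without differentiation. Both groups are labelled wild type, and all samples come from this single line. The comparison asks how expression differs between differentiated and undifferentiated cells, and differentiation, the cocktail and time in culture cannot be told apart in it. Whether the 3 libraries of a day were grown separately is not stated in the labels, so the p-values rest on a spread that may be no more than technical.

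YAP and TAZ, the proteins of Yap1 and Wwtr1, have no DNA-binding domain and act through TEAD factors, which bring them to promoters and enhancers. The Hippo kinases MST and LATS phosphorylate them, which keeps them out of the nucleus or leads to their breakdown, while spreading on a stiff substrate and actin tension favour their entry. CCN proteins are secreted into the matrix, where they bind integrins, proteoglycans and growth factors, and Cyr61 and Ctgf are classic YAP/TAZ target genes. In mesenchymal progenitors TAZ is known to bind PPARγ and restrain fat cell formation, and rounding of the cell with loss of actin tension accompanies adipogenesis. RNA levels as measured here do not report where the proteins are or whether they are phosphorylated.

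RefSeq promoter windows were at hand for 5 of the 10 genes, Cyr61, Ankrd1, Amotl2, Yap1 and Wwtr1, each running from 250 bases before the transcription start to 50 after it. The windows of the 3 target genes are shown because their RNAs gave different results at day 7, reported further on. Capitals mark each match to GGAATG, the core letters bound by TEAD factors, on either strand. Cyr61 is on the minus strand at chr3:145649936-145650235, Ankrd1 on the minus strand at chr19:36119795-36120094 and Amotl2 on the plus strand at chr9:102717554-102717853, in build GRCm38.p6, and all are written 5′ to 3′ along the gene.
Cyr61: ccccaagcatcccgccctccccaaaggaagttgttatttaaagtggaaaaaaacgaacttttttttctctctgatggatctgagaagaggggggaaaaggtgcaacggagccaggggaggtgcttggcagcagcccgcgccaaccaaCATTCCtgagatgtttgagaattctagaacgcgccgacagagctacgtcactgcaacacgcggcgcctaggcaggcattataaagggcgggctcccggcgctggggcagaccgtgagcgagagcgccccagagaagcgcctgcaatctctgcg
Ankrd1: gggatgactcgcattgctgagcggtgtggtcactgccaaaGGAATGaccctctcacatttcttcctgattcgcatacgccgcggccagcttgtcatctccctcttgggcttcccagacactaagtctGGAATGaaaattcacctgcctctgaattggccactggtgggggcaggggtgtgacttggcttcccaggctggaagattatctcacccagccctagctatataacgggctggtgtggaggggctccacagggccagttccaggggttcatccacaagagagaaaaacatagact
Amotl2: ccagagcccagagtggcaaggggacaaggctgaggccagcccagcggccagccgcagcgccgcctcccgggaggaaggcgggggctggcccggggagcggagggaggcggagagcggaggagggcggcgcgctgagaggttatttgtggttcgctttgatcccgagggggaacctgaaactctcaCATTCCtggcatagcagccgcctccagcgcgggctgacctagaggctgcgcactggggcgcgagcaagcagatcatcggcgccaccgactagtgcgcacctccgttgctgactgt
The match lay 103 bases before the start in Cyr61 and 65 bases before it in Amotl2. Ankrd1 held 2 matches, at 210 and 123 bases before the start. The Yap1 window held a match 141 bases before the start. Wwtr1 has 2 overlapping windows for 2 start sites, and both hold the same match, 136 bases before one start and 170 before the other. The same letters stood in 14.7% of all 32851 promoter windows of 300 bases, and in every window of these 5 genes. Whether these genes hold more matches than others was not tested, and a match describes the letters and not binding.

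Across all genes tested, 3802 rose and 3611 fell at day 7 (adjusted p under 0.05 after Benjamini-Hochberg, by the quasi-likelihood test of edgeR), and the median log2 fold change was 0.02. With libraries scaled by total counts alone, 2355 rose and 4025 fell, 36.9% of calls rising against 51.3%, and the median moved by -0.23. Levels are given in CPM, counts scaled to a common library size, after TMM scaling, which evens out library composition. Library totals ranged from 7655822 to 16987076 counts at day 7 and from 10805962 to 14132016 at day 0. Outside the 10 most abundant rows they ranged from 3969822 to 9459808 at day 7 and from 5721726 to 7911256 at day 0. The third day 7 column, the shallowest, stood apart on the second axis of a multidimensional scaling plot, at 1.81 against -0.62 and -0.99 in the other day 7 columns. Adipocyte markers (6 genes) summed to 3452 to 5176 CPM at day 7 and 39.9 to 44.5 CPM at day 0, and preadipocyte markers (4 genes) to 144 to 469 CPM and 2667 to 2772 CPM, with the 469 in the third column. The muscle list, most of it Des, summed to 20.9 to 25.9 CPM at day 7 and 2.54 to 3.75 CPM at day 0. The muscle factors Myod1 and Myog and the atrial peptide gene Nppa had no counts. The macrophage, endothelial and epithelial lists each summed to at most 4.07 CPM in every library. The chondrocyte list, nearly all of it Sox9, summed to 9.01 to 19.3 CPM at day 7 and 122 to 135 CPM at day 0.

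Of the 10 genes, 7 fell at day 7, none rose and 3 did not pass the test. Among all genes tested 29.2% fell and 30.8% rose. The genes that fell were 4 of the 5 CCN genes (Nov, Wisp2, Ctgf and Wisp1), both other targets (Ankrd1 and Amotl2) and Yap1, by 1.66-fold to 19.6-fold. Wwtr1, Tead1 and Cyr61 did not pass. The levels of the 7 that fell did not overlap between the days, against 34.1% of all genes tested with day 7 wholly below day 0. Ctgf, Nov and Ankrd1 had at most 9 counts in any day 7 library, under the count minimum of 10 for testing. They entered the test through day 0 alone, so a low day 7 was built in, and their falls and lack of overlap add no support. None of the 10 had day 7 wholly above day 0, against 34.2%, and 68.3% of all genes tested did not overlap in either direction. The median log2 fold change of the 10 genes was -1.87. It was -0.75 over the 7 genes left by a filter of 10 CPM in 3 libraries, which removed Ctgf, Nov and Ankrd1. Preadipocyte marker levels moved with these falls and adipocyte marker levels against them, and their part in the results was not tested. In bulk RNA, fewer cells of a type and less RNA per cell cannot be told apart.

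**Figure D1:**
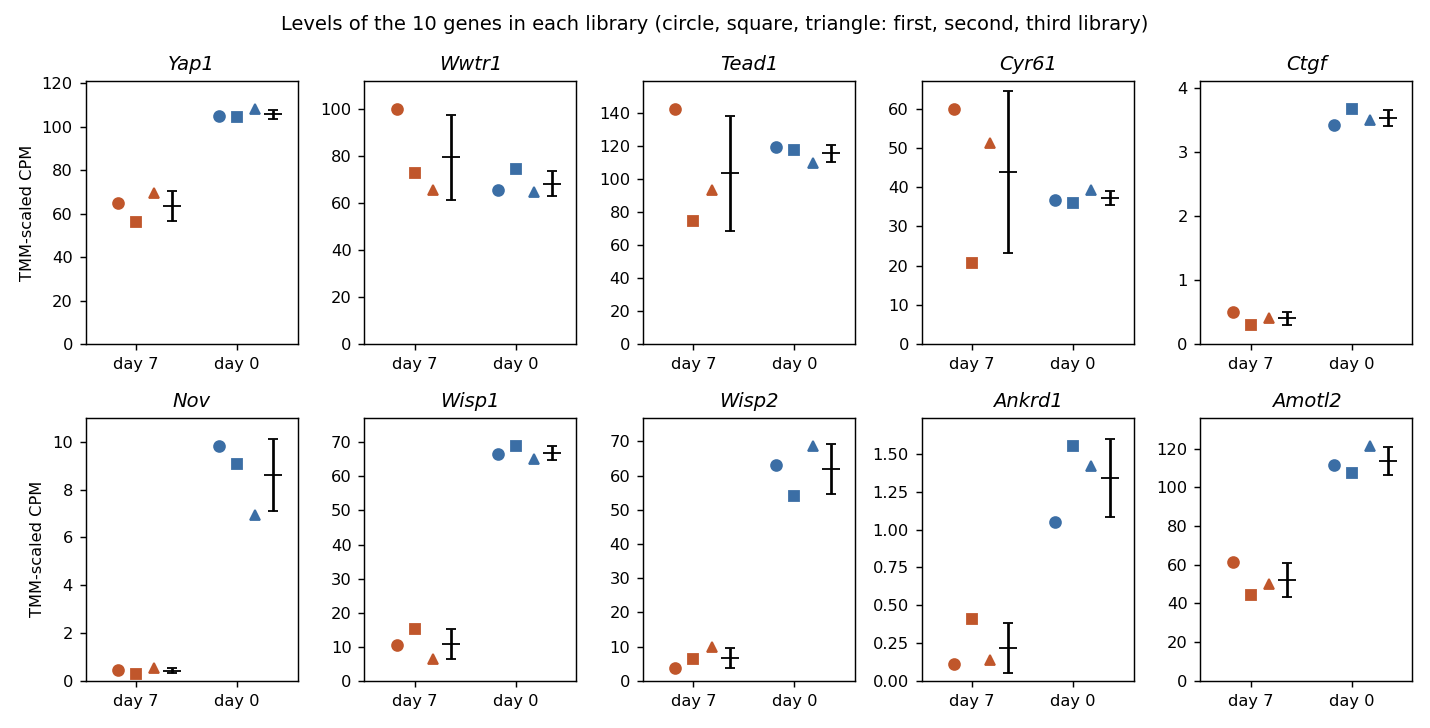
Level of each of the 10 genes in TMM-scaled CPM (vertical axes from 0, a scale of its own for each gene) in each day 7 library (orange, left) and day 0 library (blue, right); black marks are the mean ± SD of 3 libraries. The days are apart for 7 genes and overlap for Wwtr1, Tead1 and Cyr61. Day 7 libraries are widely spread for Tead1 and Cyr61, and also for Wisp1, Wisp2 and Ankrd1, which fell.

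The coactivators and their DNA-binding partner differed in result. Yap1 (chromosome 9, 7931999 to 8004596, minus strand) had 65.1, 56.0 and 69.7 CPM in the day 7 libraries, against 105, 104 and 108 CPM in those of day 0. Every day 7 library lay below every day 0 library. Yap1 fell 1.66-fold, averaging 63.6 ± 6.96 CPM at day 7 and 106 ± 2.0 CPM at day 0 (SD, n = 3 each; log2 fold change -0.73 ± 0.11, SE; edgeR adjusted p = 0.00087). It was the smallest fall among the 7 called genes, and 23.1% of all genes tested had a lower log2 fold change.

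Wwtr1 (chromosome 3, 57455649 to 57575910, minus strand), which encodes TAZ, had 100, 73.0 and 65.7 CPM at day 7, against 65.7, 74.4 and 64.8 CPM at day 0. The first day 7 column was high and the other day 7 columns lay within or near the day 0 range. The difference was not larger than the spread (log2 fold change 0.22 ± 0.17, SE; 95% interval -0.16 to 0.61; edgeR adjusted p = 0.28). Without the first day 7 column the log2 fold change was 0.02.

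Taken per kilobase of exon, the Wwtr1 level was 2.98, 2.53 and 1.83 times that of Yap1 in the day 7 libraries, against 1.21, 1.38 and 1.16 times at day 0. The groups did not overlap, as was so for the levels of 68.3% of all genes tested, and the mean log2 ratio corresponded to 1.92-fold at day 7 over day 0. The exact two-sided permutation p was 0.1, the smallest that 3 against 3 libraries allow, so this test could not pass 0.05. The fold does not depend on gene length, but the ratio itself does. With the longest transcript as length it averaged 1.42 ± 0.337 at day 7 and 0.728 ± 0.0671 at day 0 (SD, n = 3 each), so which of the coactivators was the more abundant at day 0 was not settled.

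Tead1 (chromosome 7, 112679318 to 112906807, plus strand), the TEAD factor among the 10 genes, had 143, 74.7 and 93.6 CPM at day 7, against 120, 118 and 110 CPM at day 0. The first day 7 column lay above all day 0 libraries and the other day 7 columns below them. The difference did not pass the test (log2 fold change -0.16 ± 0.22, SE; 95% interval -0.67 to 0.36; edgeR adjusted p = 0.57). This rested on single libraries: without the first day 7 column the log2 fold change was -0.47 (edgeR adjusted p = 0.020), and without the second it was 0.03.

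The CCN proteins share a modular build of an IGF-binding-like, a von Willebrand type C, a thrombospondin type 1 and a C-terminal cystine knot domain, the last of which Wisp2 lacks. In newer nomenclature Cyr61, Ctgf, Nov, Wisp1 and Wisp2 are Ccn1 to Ccn5 in this order. Of these genes 4 fell and Cyr61 did not pass. The remaining family gene, Wisp3, had no counts in any library.

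Nov (chromosome 15, 54745702 to 54754039, plus strand), a CCN protein known to restrain cell growth and to bind NOTCH1, fell most. It had 0.453, 0.305 and 0.543 CPM at day 7, against 9.82, 9.07 and 6.92 CPM at day 0. Its summed counts were 15 at day 7 and 341 at day 0. The fall was 19.6-fold (log2 fold change -4.29 ± 0.28, SE; edgeR adjusted p = 1.6e-05), and the counting interval of the day 0 over day 7 ratio, 95% and covering counting error only, was 12 to 36.2. Only 1.04% of all genes tested had a lower log2 fold change, but Nov entered the test through day 0 alone, so this rank adds no support.

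Wisp2 (chromosome 2, 163820861 to 163833146, plus strand), a protein secreted by adipose precursor cells and linked there to the hold on adipogenic commitment, had 3.91, 6.51 and 9.78 CPM at day 7, against 63.1, 54.1 and 68.6 CPM at day 0. The third day 7 column was the highest of its day and still far below day 0. Wisp2 fell 9.62-fold, averaging 6.73 ± 2.94 CPM at day 7 and 61.9 ± 7.33 CPM at day 0 (SD, n = 3 each; log2 fold change -3.27 ± 0.29, SE; edgeR adjusted p = 6.2e-05). Its log2 fold change was -3.62 when that column was left out.

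Ctgf (chromosome 10, 24595442 to 24598683, plus strand), a profibrotic matrix protein induced by TGF-beta and by YAP/TAZ, had 0.510, 0.305 and 0.407 CPM at day 7, against 3.42, 3.67 and 3.50 CPM at day 0. It was a rare transcript on both days, with summed counts of 15 at day 7 and 140 at day 0. It fell 8.16-fold (log2 fold change -3.03 ± 0.29, SE; edgeR adjusted p = 9.0e-05), with a counting interval of the day 0 over day 7 ratio from 4.83 to 15.1. An annotated transcript on the opposite strand, Gm15270, shares 665 bases of exon with it and held at most 1 count in any library.

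Wisp1 (chromosome 15, 66891320 to 66923201, plus strand), first found as a Wnt-induced gene, had 10.5, 15.4 and 6.52 CPM at day 7, against 66.5, 68.9 and 65.0 CPM at day 0. Here the third day 7 column was the lowest, the reverse of Wisp2. Wisp1 fell 6.13-fold, averaging 10.8 ± 4.43 CPM at day 7 and 66.8 ± 1.98 CPM at day 0 (SD, n = 3 each; log2 fold change -2.61 ± 0.25, SE; edgeR adjusted p = 9.0e-05).

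Cyr61 (chromosome 3, 145646976 to 145649981, minus strand), an immediate early gene of serum and mechanical stimulation, did not follow the other CCN genes. It had 59.9, 20.7 and 51.3 CPM at day 7, against 36.8, 35.9 and 39.2 CPM at day 0. At day 7 the first and the third columns lay above all day 0 libraries and the second below them. The mean difference was within this spread (log2 fold change 0.24 ± 0.33, SE; 95% interval -0.53 to 1.02; edgeR adjusted p = 0.56). The result turned on single libraries: without the second day 7 column Cyr61 rose (0.58 on the log2 scale, edgeR adjusted p = 0.0045), and without the first the log2 fold change was -0.07. Its coefficient of variation was 46.9% at day 7 and 4.65% at day 0, and at day 7 it exceeded that of 95.7% of the 7493 tested genes with at least 10 CPM there. Such a spread was not particular to Cyr61. The share was 94.1% for Wisp1 and 90.8% for Tead1, and 94.8% for Wisp2 and 98.7% for Ankrd1, which lay below 10 CPM themselves. Ankrd1 had 2, 4 and 1 counts at day 7, where counting error alone makes a wide spread. For the other members the share was 34.7% to 84.9%, highest in Nov at 84.9% and Ctgf at 81.2%, which also lay below 10 CPM. The preadipocyte sum was lowest in the first day 7 column and highest in the third, an order that the Cyr61 levels did not follow. The part of cell makeup in the spread of Cyr61 was not tested.

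The other targets both fell. Amotl2 (chromosome 9, 102716672 to 102733418, plus strand), a junctional protein that binds YAP and holds it in the cytoplasm, and whose gene YAP itself induces, had 61.6, 44.5 and 50.2 CPM at day 7, against 112, 108 and 121 CPM at day 0. The groups stood well apart, and it fell 2.17-fold (log2 fold change -1.12 ± 0.14, SE; edgeR adjusted p = 0.00031). Ankrd1 (chromosome 19, 36111961 to 36120099, minus strand), a nuclear ankyrin repeat protein best known from stretched heart and skeletal muscle, was the rarest of the 10 genes, with 2, 4 and 1 counts at day 7, against 12, 25 and 17 counts at day 0. It fell 6.34-fold (log2 fold change -2.66 ± 0.52, SE; edgeR adjusted p = 0.0031), with a counting interval of the day 0 over day 7 ratio from 3.09 to 17.7. The size of its fall depended on the second day 7 column, without which it was 10.5-fold, while the call held.

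**Figure D2:**
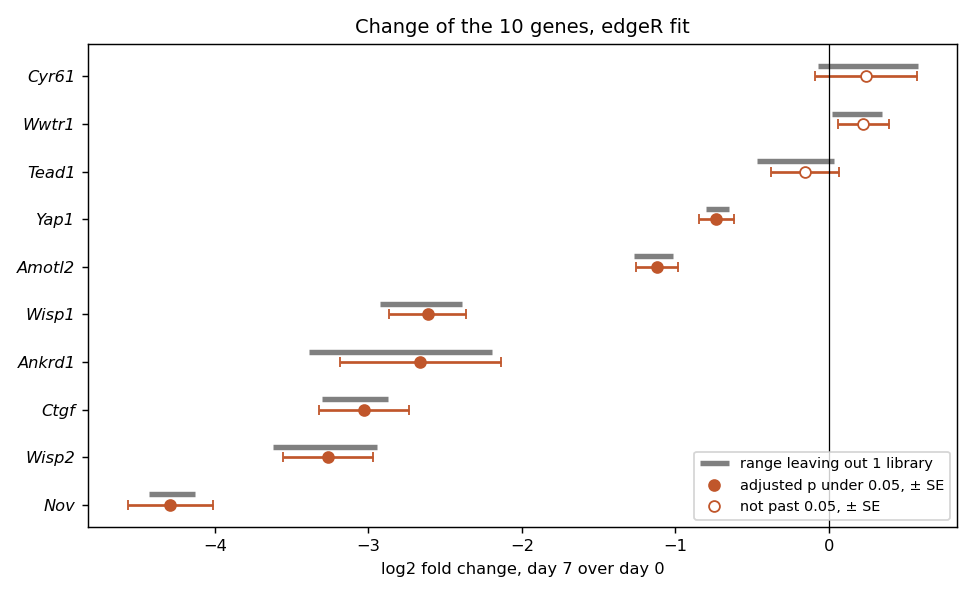
Log2 fold change, day 7 over day 0, of the 10 genes from the edgeR fit (points, with SE bars; filled where the adjusted p is under 0.05) and the range of values when 1 library is left out (grey lines). The 7 called genes stay below 0 in every such fit, from -0.65 for Yap1 to -4.43 for Nov, and the ranges of Cyr61 and Tead1 cross 0.

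Set per length, the order of the levels differed between the days. At day 7 Cyr61 led with 21.8 ± 10.2 CPM per kilobase of exon, and Wwtr1 followed with 16.7 ± 3.79 CPM per kilobase, a gap smaller than the spread of Cyr61. Amotl2, Tead1 and Yap1 came next at 8.28 ± 1.38, 7.63 ± 2.58 and 6.87 ± 0.752 CPM per kilobase, with Tead1 within its own SD of the others. Wisp2 and Wisp1 stood at 3.50 ± 1.53 and 1.94 ± 0.797, with Wisp2 the higher in every day 7 library. Nov, Ctgf and Ankrd1 stood at 0.151 ± 0.0419, 0.142 ± 0.0358 and 0.0758 ± 0.0567 CPM per kilobase (SD, n = 3 each). At day 0 Wisp2 led with 32.2 ± 3.81 CPM per kilobase of exon. Cyr61 and Amotl2 followed at 18.5 ± 0.859 and 18.1 ± 1.1, then Wwtr1 at 14.3 ± 1.11, Wisp1 at 12 ± 0.357 and Yap1 at 11.4 ± 0.216 CPM per kilobase. Cyr61 and Amotl2 did not differ beyond their spread. Tead1 at 8.53 ± 0.387, Nov at 3.00 ± 0.525, Ctgf at 1.23 ± 0.0437 and Ankrd1 at 0.465 ± 0.0898 CPM per kilobase closed the order. With the longest transcript as length the leaders stayed Cyr61 at day 7 and Wisp2 at day 0, while Yap1 moved up to rank 3 on both days. At day 0 Amotl2 then ranked 2 at 25.6 CPM per kilobase and Cyr61 ranked 4 at 18.5, so their closeness held for exon length only.

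The makeup of the CCN family was different on the 2 days. Cyr61 made up 87.5%, 61.7% and 79.4% of the summed CCN level per kilobase in the day 7 libraries, against 26.9%, 28.3% and 27.6% at day 0. Wisp2 made up 14.1% ± 7.37 at day 7 and 48.0% ± 2.94 at day 0, and Wisp1 8.62% ± 7.01 and 18.0% ± 1.6 (SD, n = 3 each). The summed level was 27.5 ± 9.49 CPM per kilobase at day 7 and 66.9 ± 3.89 at day 0. Every day 7 library thus had Cyr61 as its main CCN transcript and every day 0 library Wisp2, a description of shares to which no test was put.

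**Figure D3:**
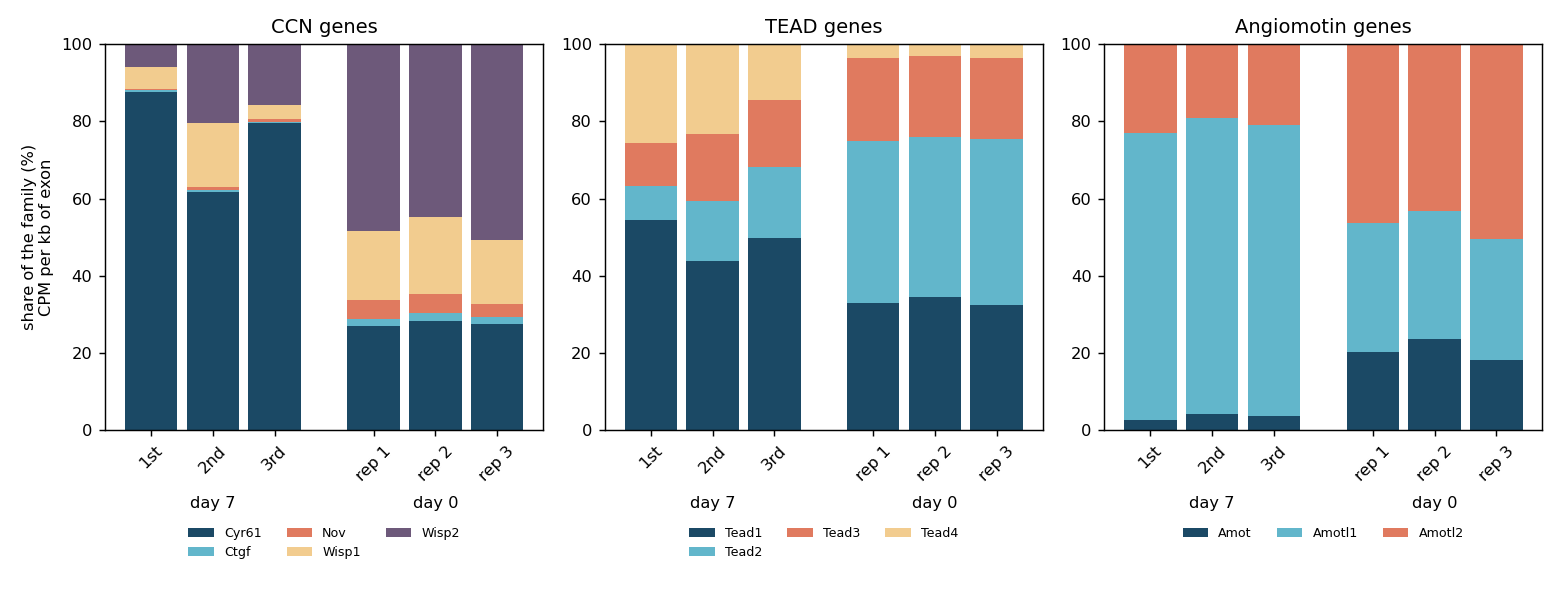
Share of each gene in the summed level of its family, in percent of CPM per kilobase of exon, for CCN genes (left), TEAD genes (middle) and angiomotin genes (right), with the 3 day 7 columns left of the 3 day 0 replicates in each panel. Cyr61 holds 61.7% to 87.5% of the CCN level at day 7 and 26.9% to 28.3% at day 0, and Amotl1 is the main angiomotin transcript at day 7.

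The other TEAD genes were listed with the vestigial-like (VGLL) cofactors, which compete with YAP and TAZ for TEAD. Of 7 genes listed 5 were tested, 1 rose, 3 fell and Vgll4 did not pass, beside 30.8% and 29.2% of all genes. Tead4, best known from trophectoderm and muscle, had 17.9, 10.6 and 7.20 CPM at day 7, against 3.51, 2.86 and 3.17 CPM at day 0. It rose 3.82-fold (log2 fold change 1.93 ± 0.33, SE; edgeR adjusted p = 0.0015). Vgll3, a cofactor of mesenchymal cells reported to inhibit adipocyte differentiation in mouse, had 9.98, 9.87 and 7.74 CPM at day 7, against 79.0, 87.5 and 85.4 CPM at day 0. It fell 9.04-fold (log2 fold change -3.18 ± 0.13, SE; edgeR adjusted p = 3.4e-06). Tead2 fell 5.28-fold, averaging 9.93 ± 2.10 CPM at day 7 and 51.7 ± 2.14 CPM at day 0, and Tead3 fell 2.42-fold. Of the summed TEAD level per kilobase, Tead1 held 49.3% ± 5.32 at day 7 and 33.3% ± 1.13 at day 0, Tead2 14.3% ± 4.98 and 42.1% ± 0.888, and Tead4 21.2% ± 5.95 and 3.44% ± 0.244 (SD, n = 3 each). Tead1 was thus the leading TEAD transcript at day 7 and Tead2 at day 0, with either gene length.

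Among the kinases and adaptors of the Hippo core, no called gene moved by more than 2.06-fold. Of 12 tested 4 rose (33.3%), 5 fell (41.7%) and 3 did not pass, beside 30.8% that rose and 29.2% that fell among all genes, so the share that rose was near that of all genes. The median log2 fold change was -0.14. Map4k4, a kinase that can activate LATS beside MST, had 214, 198 and 262 CPM at day 7, against 129, 125 and 139 CPM at day 0, a 1.71-fold rise (edgeR adjusted p = 0.0019). Nf2, the junctional scaffold merlin, rose 1.46-fold. Taok3, a kinase upstream of MST, fell 2.06-fold, averaging 17.0 ± 4.12 CPM at day 7 and 34.8 ± 2.73 CPM at day 0 (edgeR adjusted p = 0.0018). Lats2, a YAP kinase whose gene is itself a YAP target, had 21.4, 22.7 and 23.8 CPM at day 7, against 36.6, 39.0 and 38.6 CPM at day 0, a 1.69-fold fall (edgeR adjusted p = 0.00039). The rises depended on the scaling, since with total counts alone none of the 4 passed the test.

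Of 22 upstream regulators and YAP-binding inhibitors tested, 13 fell (59.1%), 3 rose (13.6%) and 6 did not pass, beside 29.2% that fell and 30.8% that rose among all genes. The median log2 fold change was -0.59. Wwc1 (KIBRA), which recruits the kinases to the membrane, fell 7.36-fold, averaging 1.82 ± 0.50 CPM at day 7 and 12.9 ± 1.62 CPM at day 0 (edgeR adjusted p = 4.4e-05). The angiomotin relatives of Amotl2 went opposite ways. Amot had 9.75, 13.6 and 11.7 CPM at day 7, against 65.6, 78.5 and 58.6 CPM at day 0, and fell 5.82-fold (edgeR adjusted p = 1.7e-05). Amotl1 had 315, 286 and 289 CPM at day 7, against 129, 133 and 121 CPM at day 0, and rose 2.33-fold (edgeR adjusted p = 8.2e-05). The summed angiomotin level per kilobase was 39.2 ± 2.73 at day 7 and 38.8 ± 0.762 at day 0 (SD, n = 3 each), with Amotl1 at 75.4% ± 1.24 and 32.7% ± 1.18 of it. The largest rise of the list was that of Ywhab, a 14-3-3 protein of the family that holds phosphorylated YAP in the cytoplasm, with 679, 478 and 475 CPM at day 7, against 142, 143 and 144 CPM at day 0 (3.80-fold, edgeR adjusted p = 6.7e-05).

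A wider set of YAP/TAZ targets, the mouse counterparts of 22 genes known as a signature in human cancer cells, holds Cyr61, Ctgf, Ankrd1 and Amotl2. Of the other 18 genes 17 were tested, 10 fell (58.8%), 2 rose (11.8%) and 5 did not pass, with a median log2 fold change of -0.78, beside 29.2% that fell and 30.8% that rose among all genes. Nuak2, a kinase of the AMPK family, fell 7.96-fold, averaging 0.585 ± 0.166 CPM at day 7 and 4.99 ± 0.233 CPM at day 0 (edgeR adjusted p = 5.3e-05). Its day 7 counts, 13, 6 and 3, lay under the count minimum for testing once scaled to library size. Nuak2 entered the test through day 0 alone, so a low day 7 was built in. Its fall, counted among the 10, adds no support. Axl, a receptor tyrosine kinase for GAS6, had 37.5, 35.0 and 49.4 CPM at day 7, against 303, 296 and 324 CPM at day 0, and fell 7.59-fold (edgeR adjusted p = 9.7e-06). Dock5, an activator of RAC, rose 2.0-fold (edgeR adjusted p = 0.0022). Ptpn14, a phosphatase that binds YAP, rose 1.28-fold (edgeR adjusted p = 0.026), a call lost when any day 0 replicate was left out, without a filter on low counts and with total counts alone. The call of Igfbp3 (edgeR adjusted p = 0.041) was lost without any 1 of 5 libraries and with DESeq2 (adjusted p = 0.059), and its first day 7 column, at 19.3 CPM against 1.32 and 3.39 in the other day 7 columns, held most of the day 7 level; without that column it fell 16.0-fold (edgeR adjusted p = 0.00027). The untested gene, Nt5e, had 18 counts at day 7, 14 of them in the third column, and none at day 0.

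**Figure D4:**
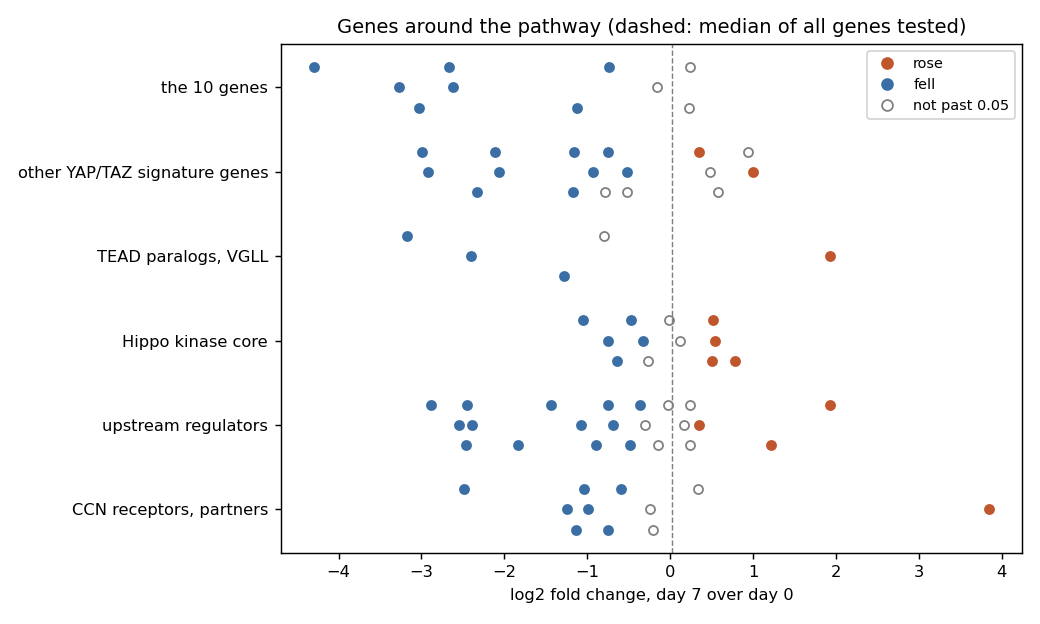
Log2 fold change, day 7 over day 0, of each tested gene (1 point a gene, vertical offsets only keep points apart) in the 10 genes and in 5 lists of related genes, with the 10 genes left out of the lists below them. Filled points passed the test (orange rose, blue fell), open points did not, and the dashed line is the median of all genes tested, 0.02.

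Of 11 tested receptors and partners through which CCN proteins signal, 7 fell (63.6%), 1 rose (9.09%) and 3 did not pass, beside 29.2% that fell and 30.8% that rose among all genes. The median log2 fold change was -0.75. The integrin chain genes Itgav, Itgb3, Itgb5 and Itgb1 fell 1.68-fold to 2.19-fold, and Itga5, the fibronectin receptor chain, fell 2.37-fold, averaging 40.8 ± 1.5 CPM at day 7 and 96.6 ± 10.3 CPM at day 0 (edgeR adjusted p = 6.5e-05). Itgb5 had fractional counts in 4 libraries. Itgb2, a leukocyte integrin chain, fell 5.6-fold on 9 counts at day 7 and 60 at day 0 (edgeR adjusted p = 0.0033). Itgb2 had 3 counts in each day 7 library, under the count minimum of 10, and entered the test through day 0 alone. A low day 7 was thus built in, and its fall, counted among the 7, adds no support. Itga6, a laminin receptor chain that also binds CCN proteins, went the other way, with 467, 454 and 260 CPM at day 7, against 28.6, 28.5 and 25.2 CPM at day 0. It rose 14.4-fold (log2 fold change 3.84 ± 0.25, SE; edgeR adjusted p = 1.6e-05), with fractional counts in 3 libraries.

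The genes whose profiles over the 6 libraries lay closest to a member were found by the root mean square difference of centred log2 CPM, among the 7748 genes whose mean level reached 10 CPM. For Yap1 they were Snrpa, Rap1b and Tmod3, at distances of 0.0330, 0.0344 and 0.0352. For Ctgf they were Cacna1c, Gpr153 and Fscn1, at 0.108, 0.114 and 0.118. For Cyr61 they were Plod2, Ccdc71l and Il6ra, at 0.128, 0.134 and 0.147. These were the nearest genes for 3 of the 10 members, and a small distance says only that the levels over these libraries are alike.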

How the data were processed

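The library kit was Illumina's Stranded Total RNA Prep, per the labels' protocols. The submitters' processing notes name Salmon 1.9.0, STAR 2.7.10a, Trim Galore 0.6.7 and build GRCm38, without their roles. The deposited table holds an estimated count per gene and library, unscaled, a unit read from its values, and 10 columns beside it were not used. The 3 day 7 columns carry the same replicate number, so they are told apart by their order in the table alone.

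Counts were rounded, reduced to genes that pass filterByExpr (count minimum 10, total minimum 15), scaled by TMM and compared by edgeR 4.0.16's quasi-likelihood test on the whole table, with day as the only factor and Benjamini-Hochberg adjustment (threshold 0.05). The fit was tested on simulated data of 12354 genes, in which 100 changed 2-fold and 100 changed 4-fold. It recovered 58 of the 2-fold and 91 of the 4-fold changes, with 11 false calls. Far fewer genes changed there than were called in the real data. SE is the log2 fold change over the square root of F. Lengths and locations are from GENCODE M21 (GRCm38), and 5 members were matched through RefSeq synonyms. The 10 genes had whole counts in every library. Pairs of libraries of a day differed by more than sampling noise (chi-square per gene at least 6.65). The members and lists were chosen with earlier results of these data known. All 10 members are named, and of each list the 2 largest rises and falls past the threshold; Tead3, Vgll4, Igfbp3, Nt5e, Itgav, Itgb3, Itgb5, Itgb1 and those in the other observations were chosen after their values were seen. Alternatives were other scalings and filters, DESeq2 1.42.0, limma-voom 3.58.1, removal of the 10 most abundant rows and leaving out each library. Actc1, Adgre1 and Acan of the marker lists were not analysed here, and 1 list of related genes is not reported here.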

Additional observations from a re-analysis of the deposited data

How the results depend on the processing

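No paired analysis was possible because the day 7 columns all carry replicate number 1. The 7 falls among the 10 genes kept their direction and call under RLE, upper-quartile and total-count scaling, without a filter, with DESeq2, with limma-voom, without the 10 most abundant rows and in all 6 fits that left out a library. A filter of 10 CPM in 3 libraries removed Ctgf, Nov and Ankrd1 from the test, so that 4 of 7 members fell, 2 of 3 CCN genes and 1 of 1 other target. This filter also removed Tead4, so its rise was not retested, and none of the 4 TEAD and VGLL genes left in the test rose. Leaving out a library, the log2 fold change ranged from -0.47 to 0.031 for Tead1 and from -0.069 to 0.58 for Cyr61. Counts over these fits ranged from 0 to 1 for members and for CCN genes that rose, from 1 to 2 for factors and coactivators that fell, from 1 to 4 for signature genes that rose, with or without the members, and from 1 to 2 for receptors that rose. With total counts alone, 0 Hippo core genes rose, 1 signature gene rose, with or without the members, and 2355 of all genes rose. With the longest transcript as length, the Wwtr1 over Yap1 level was 1.42 at day 7 and 0.728 at day 0, since the Yap1 exons together are longer than any of its transcripts. Ctgf, Nov and Ankrd1 rest on 15, 15 and 7 counts at day 7, which limits the size of their falls.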

Other observations

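Some genes around the pathway had a day 7 level that stood apart in the third day 7 column, and they were picked after their values were seen. Arhgef17 had 42.0, 66.0 and 177 CPM at day 7, against 165, 169 and 152 CPM at day 0. It did not pass the test (edgeR adjusted p = 0.18), and without the third column it fell 3.02-fold (edgeR adjusted p = 0.00025). Vgll4, a cofactor that opposes YAP at TEAD, had 30.5, 42.8 and 85.3 CPM at day 7, against 89.8, 100 and 83.6 CPM at day 0, with an edgeR adjusted p of 0.071 that became 0.00028 without that column. Its call also differed by tool, with an adjusted p of 0.030 by DESeq2 and 0.033 by limma-voom. Tgfb2, a ligand that induces Ctgf, had 11.8, 16.8 and 28.5 CPM at day 7, against 27.5, 28.8 and 24.0 CPM at day 0, and did not pass the test (edgeR adjusted p = 0.16). Without the third column it fell 1.89-fold (edgeR adjusted p = 0.0023), and with total counts alone its adjusted p was 0.046. The third column also held the highest day 7 level of the preadipocyte gene Dlk1, at 254 CPM against 50.9 and 133 CPM in the other day 7 columns, and the part of preadipocyte RNA in these values was not tested.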
